A study of Mus musculus with 3 samples.

Results

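Cells rich in both insulin and Ppy were studied in 3 single-cell libraries of mouse islets at 9 months, labelled ASF-KO, SC35-KO and wild type (WT). A cell is a barcode with at least 500 genes and 1000 unique molecular identifiers (UMIs, which count single RNA molecules) and at most 20% of UMIs from mitochondrially encoded genes. A cell is called dual here when Ins1 and Ins2 together made up at least 10% of its UMIs and Ppy at least 5%. There were 227 dual cells among 28374 kept cells, out of 36681 barcodes. The library labelled ASF-KO held 41 of 7401, the library labelled SC35-KO held 112 of 11685 and the WT library held 74 of 9288. ASF is an older name of the splicing factor SRSF1, and SC35 of SRSF2. The labels give neither the cells in which the gene was deleted, nor the sex, strain or number of mice behind a library, and they name no other allele or agent. Islets were picked by hand after collagenase digestion and dissociated with trypsin, and their 3' ends were sequenced. With 1 library per group there is no replicate: each interval below, unless a bound is given by a number of cells, is an exact or Newcombe 95% interval that covers counting error only, and no test across groups was made.

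Islet beta cells make insulin, which mice encode in Ins1 and Ins2, and co-secrete islet amyloid polypeptide from Iapp. Gamma cells, also called PP cells, make pancreatic polypeptide from Ppy, a member of the neuropeptide Y family, and many also transcribe its neighbour Pyy, which encodes peptide YY. In mice, lineage tracing with a Cre driven by Ppy has labelled some insulin cells. Such a label can stem from past Ppy activity, so it does not by itself show that a cell holds both hormones. A droplet that traps a beta and a gamma cell carries both hormones, and RNA freed during dissociation adds hormone UMIs to every droplet.

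The promoters of Ins1 and Ppy are shown because these 2 genes define the cells. Each is given 5' to 3' on the strand of its gene, from 250 bases before to 50 bases after the start, from RefSeq on GRCm38.p6. Ins1 lies on the plus strand at chr19:52264047-52264346 and Ppy on the minus strand at chr11:102101270-102101569. Capitals mark matches, on either strand, to TAAT, the core bound by homeodomain factors such as Pdx1, to CANNTG, the E-box, and to TATAAA, the TATA box.
Ins1: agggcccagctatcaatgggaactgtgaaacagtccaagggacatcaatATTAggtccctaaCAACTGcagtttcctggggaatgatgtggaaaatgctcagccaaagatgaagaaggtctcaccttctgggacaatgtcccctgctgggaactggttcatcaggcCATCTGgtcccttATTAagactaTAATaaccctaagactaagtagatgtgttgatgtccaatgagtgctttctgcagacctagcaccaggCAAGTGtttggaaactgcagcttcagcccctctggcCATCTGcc
Ppy: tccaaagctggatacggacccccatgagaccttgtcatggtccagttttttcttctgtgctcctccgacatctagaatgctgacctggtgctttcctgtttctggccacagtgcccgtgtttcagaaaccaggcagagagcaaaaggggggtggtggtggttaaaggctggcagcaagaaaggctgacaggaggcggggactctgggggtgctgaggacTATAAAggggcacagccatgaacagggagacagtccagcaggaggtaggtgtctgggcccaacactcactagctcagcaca
The Ins1 window held 3 TAAT matches, 4 CANNTG matches and 0 TATAAA matches, while the Ppy window held 0 TAAT, 0 CANNTG and 1 TATAAA match. Of 32851 promoters of this length in the table, 58.0% held TAAT, 72.3% CANNTG and 13.6% TATAAA, so that TAAT and CANNTG are each found in most promoters and TATAAA is not. The next gene to Ppy in this set, Pyy, lies on the same strand of chromosome 11, from base 102106676 to base 102107832 in the GENCODE annotation of GRCm38.

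Library totals were close, from 148320213 to 154099078 UMIs, but depth per kept cell was not. The median was 17657 UMIs in the library labelled ASF-KO, 10195 in that labelled SC35-KO and 14688 in WT. The cell filter removed 40.8% of barcodes from the library labelled ASF-KO, 16.1% from that labelled SC35-KO and 9.53% from WT. Pairs of libraries shared 13 to 32 kept barcode sequences, and no dual barcode was found in another library. In dual cells Srsf1 stood at 137 CPM in the library labelled ASF-KO against 78.8 in WT, and Srsf2 at 103 CPM in that labelled SC35-KO against 58.8 in WT. Srsf2 was also higher in the library labelled ASF-KO, at 186 CPM, or 3.17 times WT (2.20 to 4.59). A 3' tag can lie outside a deleted exon, so these levels check no label. Throughout, CPM is a gene's UMIs summed over a class of cells, per 1000000 of the UMIs that remain without 8 hormone genes and the mitochondrially encoded genes.

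The balance of insulin and Ppy varied widely from one dual cell to the next. Insulin took 12.5% to 65.3% of UMIs (median 39.0%) in the library labelled ASF-KO, 10.2% to 50.4% (median 32.6%) in that labelled SC35-KO and 10.1% to 53.1% (median 25.3%) in WT. Ppy took 5.22% to 28.9% (median 10.05%), 5.03% to 43.6% (median 11.2%) and 5.003% to 34.3% (median 10.5%) in the same order of libraries. These shares chose the cells and are given as a description. Pyy, which the rule did not use, had a median of 3.82%, 3.81% and 3.56%, and its lowest values were near 0 (0.178%, 0.0150% and 0.0541%), so some dual cells held Ppy with hardly any Pyy. Iapp had medians of 3.32%, 4.21% and 3.38% and was above 0.8% in each dual cell. Across dual cells the Spearman correlation of the Ppy and Pyy shares was 0.459, 0.379 and 0.360 (n = 41, 112 and 74 cells), and that of the insulin and Ppy shares was -0.220, -0.266 and -0.235. The shares of a cell have one common total, and the cells of a library one source.

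**Figure D1:**
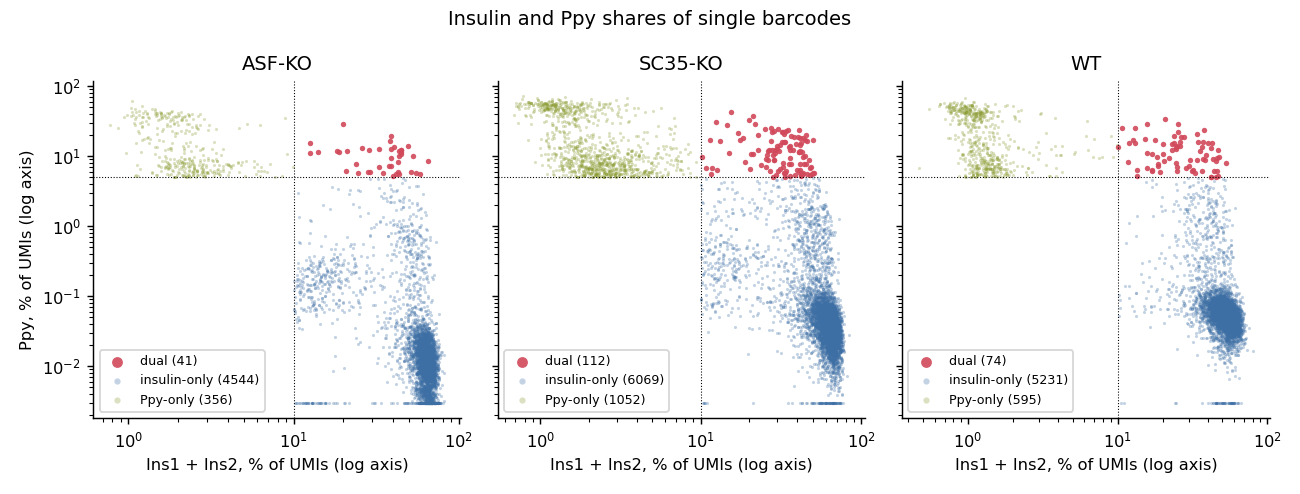
Share of UMIs from Ins1 and Ins2 (x, %, log axis) and from Ppy (y, %, log axis) in single barcodes of the 3 libraries, for dual, insulin-only and Ppy-only cells; dotted lines mark 10% and 5%, and cells under 0.003% Ppy are drawn at 0.003%. The 41, 112 and 74 dual cells spread over the corner above both lines, with the insulin-only cells trailing up to the Ppy line.

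Cells lay close to both thresholds, more of them at the Ppy threshold than at the insulin threshold. Just outside the Ppy threshold, at 4 to 5% Ppy, lay 6, 23 and 11 insulin-rich cells of the libraries labelled ASF-KO, SC35-KO and WT, and just inside, at 5 to 6%, lay 11, 19 and 7. On the insulin edge the cells were sparser: 4, 9 and 3 Ppy-rich cells had 8 to 10% insulin, and 0, 5 and 4 had 10 to 12%. Most Ppy-rich cells had less insulin than that: 84.6%, 84.2% and 87.1% of them were under 5%. Under 2% were 38.3% and 43.9% in the libraries labelled KO and 80.7% in WT.

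Of the kept ASF-KO-labelled cells 0.554% (0.398 to 0.751) were dual, and in WT 0.797% (0.626 to 0.999), a difference of -0.243 percentage points (-0.492 to 0.0118). In the library labelled SC35-KO the share was 0.958% (0.790 to 1.15) against the same WT share, a difference of 0.162 points (-0.0969 to 0.414). Both intervals of the difference include 0. Among insulin-rich cells it was 0.894% with the ASF-KO label and 1.39% in WT, a difference of -0.501 points (-0.924 to -0.0766), and this interval lies below 0. With SC35-KO it was 1.81% against 1.39% in WT, a difference of 0.417 points (-0.0484 to 0.877). Among cells with at least 5% Ppy the share was 10.3% and 9.62% in the 2 libraries labelled KO and 11.1% in WT, and both differences, -0.734 (-4.43 to 3.28) and -1.44 points (-4.48 to 1.39), include 0. The order of the libraries therefore depends on which cells stand in the denominator.

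How often cells of another kind also reached 10% insulin gives a scale for these counts. Cells with at least 5% Ppy and under 5% each of Gcg (glucagon, the alpha cell hormone) and Sst (somatostatin, the delta cell hormone) did so in 22.2%, 21.5% and 19.4% of cases in the libraries labelled ASF-KO, SC35-KO and WT. Without a filter on other hormones, cells with at least 5% Ppy did so in 10.3%, 9.62% and 11.1%. Equally unfiltered, cells with at least 5% Gcg did so in 6.23%, 11.2% and 7.10%. For cells with at least 5% Sst it was 3.69%, 2.47% and 1.62%. Cells with at least 20% Ppy were insulin-rich in 0.826%, 5.39% and 2.89%. Endothelial cells, taken as cells with at least 10 UMIs of endothelial markers, reached 10% insulin in 17.1%, 16.9% and 10.7%. In all endothelial cells so taken the median insulin share was 5.79%, 5.15% and 2.54% at median depths of 3529, 2825 and 3181 UMIs, while the median Ppy share was 0.0585%, 0.0962% and 0.0909%. Cells that should make neither hormone thus came far closer to the insulin threshold than to the Ppy threshold, and 3, 2 and 6 of them, of 473, 455 and 745, reached 5% Ppy. Ppy-only cells, with at least 5% Ppy and under 10% insulin, had a median insulin share of 2.16%, 2.03% and 1.19%.

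Dual cells held about as many UMIs as insulin-only cells and more than Ppy-only cells. Insulin-only cells had at least 10% insulin and under 5% Ppy, and numbered 4544, 6069 and 5231 against 356, 1052 and 595 Ppy-only cells. The median depth was 27131 UMIs in dual, 26013 in insulin-only and 9821.5 in Ppy-only cells of the library labelled ASF-KO. It was 14999, 16985 and 7683 UMIs in that labelled SC35-KO, and 22126, 22444 and 11402 UMIs in WT. Dual cells had 1.04, 0.883 and 0.986 times the median UMIs of insulin-only cells, and 1.33, 1.15 and 1.22 times their median of UMIs without hormone and mitochondrial genes. Genes detected per cell followed the second measure, with medians of 3976, 2704.5 and 3976.5 in dual and 3397, 2581 and 3658 in insulin-only cells. A sum of the medians of insulin-only cells and of Ppy-only cells low in Gcg and Sst came to 38410, 28211 and 36726 UMIs, and 8 of 41, 20 of 112 and 21 of 74 dual cells lay above it.

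Depth within dual cells was spread to both sides. Among insulin-rich cells with 20000 to 30000 UMIs, 0.375%, 0.880% and 0.252% were dual in the libraries labelled ASF-KO, SC35-KO and WT. Below, at 10000 to 20000 UMIs, it was 1.46%, 1.74% and 1.91%, at 5000 to 10000 UMIs 2.78%, 3.44% and 2.45%, and above, at 30000 to 50000 UMIs, 1.38%, 2.90% and 2.88%. Dual cells were thus a larger share of insulin-rich cells next to that range on both sides, although just 3 dual cells of the library labelled ASF-KO had 5000 to 10000 UMIs. Under 5000 UMIs it was 0.490%, 1.04% and 0.938%. Scrublet, which scores each barcode against simulated doublets, marked 12 (29.3%), 44 (39.3%) and 9 (12.2%) of the dual cells, against 5.30%, 10.1% and 4.24% of insulin-only and 4.49%, 5.13% and 1.34% of Ppy-only cells. How many dual cells are droplets with a pair of cells was not tested beyond these values.

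**Figure D2:**
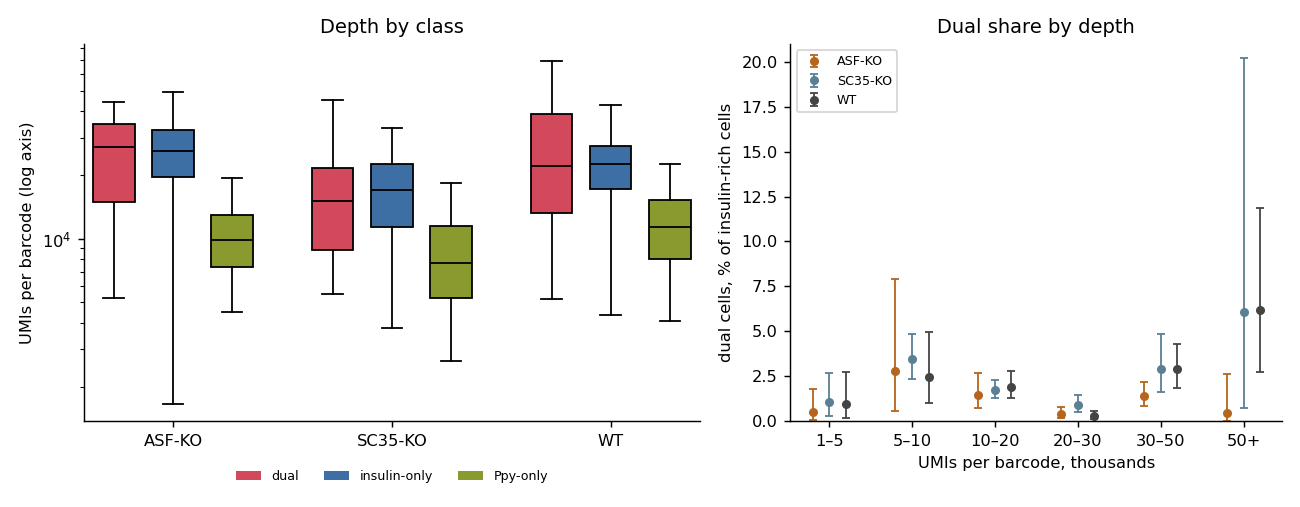
Left, UMIs per barcode (log axis) of dual, insulin-only and Ppy-only cells in each library; boxes span the quartiles with the median as a line, and whiskers the 5th to 95th percentile. Right, dual cells as a percentage of insulin-rich cells by depth, with exact 95% intervals; each library has its lowest share at 20000 to 30000 UMIs (0.375%, 0.880% and 0.252%).

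Beta cell genes were present in dual cells at levels below those of insulin-only cells and far above those of Ppy-only cells. Mafa, a transcription factor of mature beta cells, stood at 405 CPM in dual, 715 in insulin-only and 21.1 in Ppy-only cells low in Gcg and Sst of the library labelled ASF-KO. The same 3 classes had 196, 480 and 20.3 CPM in the library labelled SC35-KO, and 250, 581 and 18.005 CPM in WT. Slc2a2, the glucose transporter GLUT2, had 206, 491 and 15.2 CPM with ASF-KO, 313, 621 and 15.4 CPM with SC35-KO, and 340, 913 and 28.4 CPM in WT. In each library the dual cells lay between the other classes for both genes. Ucn3, a peptide of mature beta cells, had 331, 283 and 431 CPM in dual cells of the 3 libraries against 563, 512 and 782 CPM in insulin-only cells. G6pc2, a glucose-6-phosphatase subunit of islets, had 413, 377 and 525 CPM against 948, 941 and 1310 CPM. None of the 11 beta markers other than hormones lay at least 1.5 times above or below both single-hormone classes in any library.

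Genes of Ppy cells were raised over insulin-only cells at the same time. Etv1, an ETS-family transcription factor, had 231, 392 and 286 CPM in dual cells of the 3 libraries, against 116, 235 and 102 CPM in insulin-only and 624, 746 and 648 CPM in Ppy-only cells low in Gcg and Sst. Tspan8, a tetraspanin, had 388, 585 and 350 CPM in dual, 38.1, 76.0 and 37.4 in insulin-only and 883, 1674 and 827 in the same subset of Ppy-only cells. Calb1, the calcium buffer calbindin, had 199, 188 and 165 CPM in dual, 32.5, 40.8 and 27.8 in insulin-only and 523, 461 and 331 in those Ppy-only cells. Both genes were thus several times higher in dual than in insulin-only cells of each library, and below the Ppy-only level. Of the other gamma markers, Isl1 and Meis2 differed little between the classes and Id4 had 0 to 1 UMIs in dual cells of each library. Meis2 was also high in endothelial cells, at 776, 976 and 887 CPM, so its level says little of islet cell type here.

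The 12 genes that separated insulin-only from Ppy-only cells most steadily in each direction were followed next. All 12 higher in insulin-only cells, among them Tmem215, Sytl4, Trpm5, Cox6a2, Gad1, Prss53, Fam151a and Papss2, lay between the classes in dual cells of each library. On a scale from 0% at the Ppy-only level to 100% at the insulin-only level, their median position was 49.0%, 41.3% and 43.5%, with all Ppy-only cells as the 0% level. The 12 genes higher in Ppy-only cells low in Gcg and Sst, among them Rcn3, Cd9, Calb1, Rab3c, Kcnk3 and Smarca1, also all lay between, at a median of 70.2%, 58.6% and 62.2% with that subset as the 0% level. Of the 12 genes higher in all Ppy-only cells, 9, 12 and 12 lay between, at a median of 80.6%, 57.7% and 69.2%. On both sides the position depends on the levels of the reference cells, which include free RNA.

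**Figure D3:**
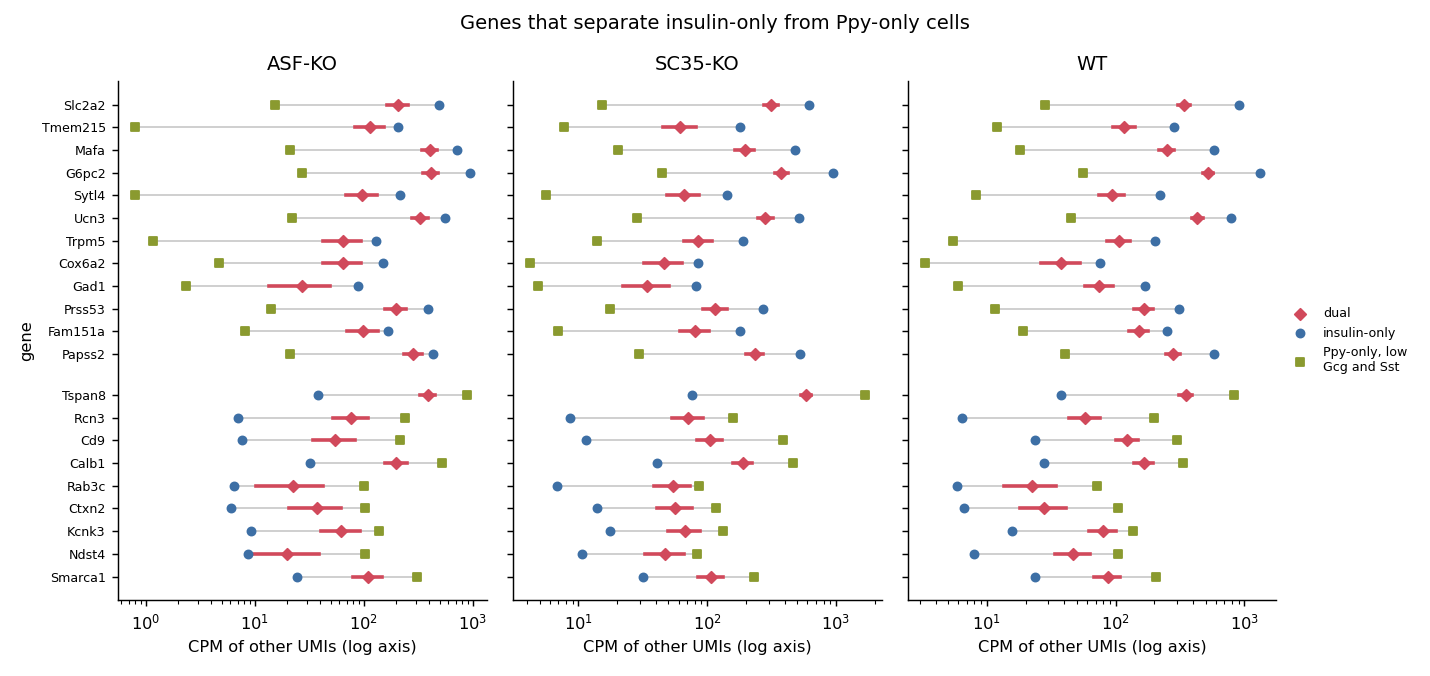
CPM of UMIs other than hormone and mitochondrially encoded genes (log axis) for 12 genes higher in insulin-only cells (upper block) and 9 of the 12 higher in Ppy-only cells low in Gcg and Sst (lower block), in the 3 libraries; diamonds are dual cells, circles insulin-only cells, squares those Ppy-only cells, bars exact 95% counting intervals of the dual value and a value under 0.8 CPM is drawn at 0.8. The dual diamonds lie between the circles and the squares for all genes shown.

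Over all genes that differed at least 2-fold between insulin-only and Ppy-only cells, a weighted sum of the 2 profiles was set against the dual profile. With all Ppy-only cells as the second profile, the least-squares weight of the insulin-only profile was 65.0% over 513 genes in the library labelled ASF-KO. It was 51.8% over 480 in that labelled SC35-KO and 56.4% over 692 in WT. With Ppy-only cells low in Gcg and Sst instead, the weight was 66.5%, 59.9% and 63.7%. Dual cells lay between insulin-only and all Ppy-only cells for 466 (90.8%), 461 (96.0%) and 665 (96.1%) of the 513, 480 and 692 genes. With all Ppy-only cells as the second class, few genes went past both: at least 1.5 times above both were 51 of 4355 genes with ASF-KO (1.17%), 8 of 4101 with SC35-KO (0.195%) and 4 of 4081 in WT (0.098%). At least 1.5 times below both were 33 (0.758%), 11 (0.268%) and 3 (0.0735%). None was above both, or below both, in each of the 3 libraries, with 41, 112 and 74 cells behind the sums. No p-value stands behind these counts.

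Mafa and Etv1 were also counted cell by cell, at equal depth. After thinning each cell to 1000 UMIs other than hormone and mitochondrially encoded genes, Mafa had a UMI in 17.1%, 13.4% and 18.9% of dual cells of the libraries labelled ASF-KO, SC35-KO and WT. The share was 44.1%, 31.9% and 39.6% in insulin-only cells, 1.55%, 1.25% and 1.08% in Ppy-only cells low in Gcg and Sst, and 4.37%, 1.34% and 2.27% in endothelial cells with under 10% insulin, which should lack it. Etv1 had a UMI in 24.4%, 22.3% and 28.4% of dual cells, 10.1%, 18.8% and 8.93% of insulin-only cells and 41.1%, 50.2% and 45.0% of those Ppy-only cells, against 2.57%, 5.09% and 2.42% of endothelial cells. The dual shares of both genes lay between those of the single-hormone classes, but for Etv1 in the library labelled SC35-KO the interval of the dual share (15.0 to 31.2) includes the insulin-only share. Unthinned, 63.4%, 42.9% and 60.8% of dual cells held a Mafa UMI and 75.6%, 80.4% and 74.3% an Etv1 UMI, at median depths of 10215, 5779.5 and 10676 such UMIs. The same endothelial cells then held Mafa in 9.95%, 6.88% and 7.22% and Etv1 in 7.14%, 12.2% and 7.37%, at median depths of 3141, 2453.5 and 2876.

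Dual cells at or below the median depth of insulin-only cells were set apart from deeper ones, and 3 genes of secretory granules, Chga, Chgb and Pcsk1, were at least 1.5 times higher in them in each library. There were 19, 71 and 37 such shallow dual cells, with medians of 14211, 10185 and 13101 UMIs, and 22, 41 and 37 deeper ones, with medians of 33868, 27809 and 38766. This split was made after earlier results had been seen. In shallow dual cells 419 of 4711 genes (8.89%) with ASF-KO, 115 of 4312 (2.67%) with SC35-KO and 197 of 4360 (4.52%) in WT lay at least 1.5 times above both insulin-only cells and Ppy-only cells low in Gcg and Sst. Below both lay 286 (6.07%), 54 (1.25%) and 61 (1.4%). Just 9 genes were above both in each library and 0 below. In deeper dual cells 100 (2.24%), 31 (0.732%) and 16 (0.386%) were above both and 80 (1.79%), 57 (1.35%) and 17 (0.411%) below, of which 1 and 2 were shared by the 3 libraries. Set directly against deeper dual cells, shallow ones had 6.27%, 11.4% and 14.5% of genes at least 1.5 times higher and 16.8%, 7.32% and 9.0% at least 1.5 times lower, 20 and 17 of them in each library. Slc2a2 was among those lower, at 94.3, 239 and 104 CPM in shallow against 252, 368 and 431 CPM in deeper dual cells, and Pcsk1, the proinsulin-cleaving convertase, among those higher, at 686, 307 and 303 against 444.5, 191 and 197 CPM. Of the granule list as a whole, 3 of 14, 5 of 15 and 3 of 14 measured genes were at least 1.5 times higher in shallow cells and 1, 0 and 0 lower, with a median log2 ratio of 0.04, 0.26 and 0.22, so most of the list did not pass.

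Cpb2, which encodes carboxypeptidase B2, was among the 9. Of the 3 classes compared it reached 50 CPM in the shallow dual cells alone, so that it could be called in 1 direction only, and its values are a description. It had 103 CPM in shallow dual, 14.5 in insulin-only and 17.6 in Ppy-only cells low in Gcg and Sst of the library labelled ASF-KO. The values were 196, 15.1 and 12.6 CPM with SC35-KO, and 188, 13.1 and 18.005 CPM in WT. Against insulin-only cells this is 7.12 (3.65 to 12.5), 13.0 (9.85 to 16.9) and 14.3 (10.4 to 19.3) times higher, from 12, 64 and 47 UMIs. Chga, chromogranin A of secretory granules, had 31977, 18851 and 23326 CPM in shallow dual, 16153, 9187 and 10461 in insulin-only and 7200, 4951 and 6348 in the Ppy-only cells. Chgb, chromogranin B, had 5067, 2920 and 2785 CPM in shallow dual against 2353, 1791 and 1368 CPM in insulin-only cells. Also above both were Igfbp7 (694, 325 and 351 CPM in shallow dual cells), which binds insulin-like growth factors, Mef2c (111, 111 and 152 CPM), a MADS-box transcription factor that in the libraries labelled ASF-KO and WT likewise reached 50 CPM in these cells alone, and Rab3b (120, 172 and 215 CPM), a GTPase of vesicle release.

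Chga divided the dual cells further. A cut at the 95th percentile of insulin-only cells (29548, 19894 and 19909 CPM) put 15 (36.6%), 28 (25%) and 25 (33.8%) dual cells above it, with medians of 14851, 9835.5 and 13582 UMIs, against 32650, 16663 and 33413 UMIs in the 26, 84 and 49 below. This cut was set after the values had been seen, and Chga itself is no finding between the sides. Cpb2 had been picked for its level in shallow dual cells of the same data, so its counts here are a description too. Cells rich in Chga held Cpb2 in 8 of 15, 17 of 28 and 16 of 25 cases, against 1 of 26, 9 of 84 and 8 of 49 of the others. They held Mafa in 4, 2 and 9 cases, against 22, 46 and 36 of the cells lower in Chga. The cells lower in Chga were deeper and so had more UMIs in which to find a gene.

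Levels scaled for depth still differed by Chga. Rcn3, a calcium-binding protein of the secretory pathway, was at 0, 0 and 24.7 CPM in Chga-rich dual cells, against 114, 87.5 and 67.3 CPM in the others, and Etv1 at 92.2, 160 and 173 CPM against 298, 445 and 319 CPM. Mafa had 92.2, 13.9 and 49.3 CPM against 555, 238 and 308 CPM, and Slc2a2 84.5, 55.7 and 78.9 CPM against 264, 373 and 415 CPM. Most separating genes went this way, counted without a fold threshold. Lower in Chga-rich cells were 11, 12 and 12 of the 12 higher in insulin-only cells. Of the 12 higher in Ppy-only cells low in Gcg and Sst, 11, 10 and 8 were lower. The share of all genes lower in Chga-rich cells is not given, so these counts have no background and are a description. A few genes, chosen after their values were seen, were not lower. Gjd2, the beta cell gap junction protein connexin 36, had 223, 292 and 370 CPM in Chga-rich cells against 143, 222 and 208 CPM in the others. Tspan8 had 400, 703 and 493 CPM against 382, 557 and 308 CPM, and Pcsk1 692, 362 and 311 CPM against 430, 212 and 202 CPM. These 3 genes were thus higher in Chga-rich cells of each library. Glucagon reads also differed, with at least 5% Gcg in 0, 0 and 1 Chga-rich cells and in 4, 20 and 4 of the others.

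**Figure D4:**
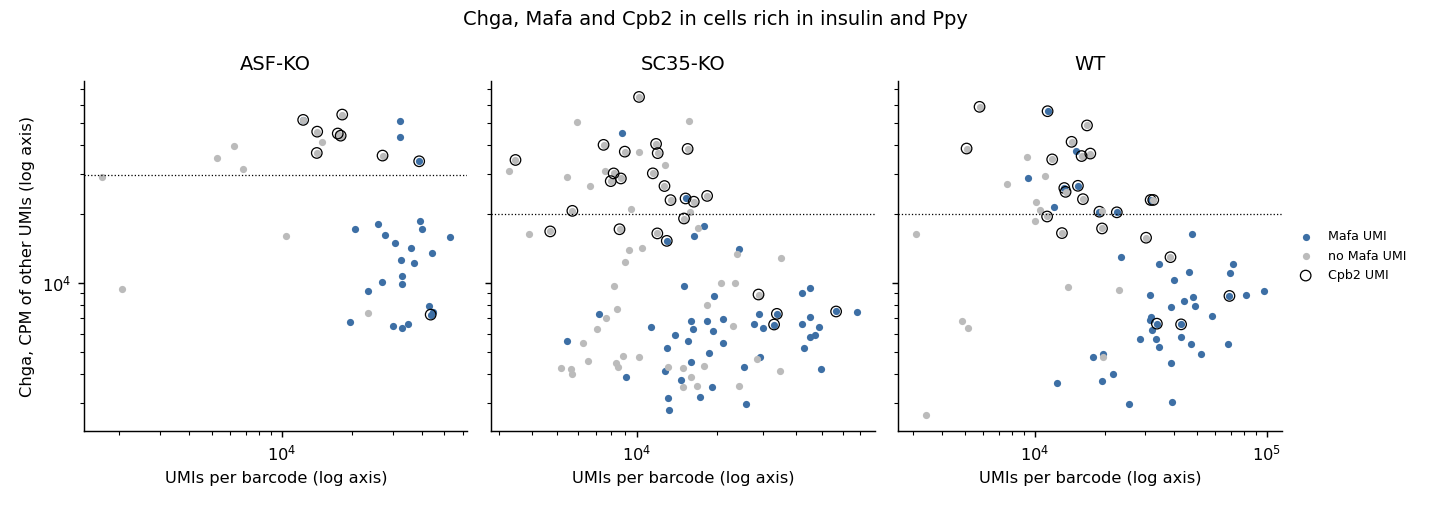
Chga level (y, CPM of UMIs other than hormone and mitochondrially encoded genes, log axis) and UMIs per barcode (x, log axis) of each dual cell in the 3 libraries; the dotted line is the 95th percentile of insulin-only cells, colours give whether Mafa had a UMI, and rings mark cells with a Cpb2 UMI. Cells with Mafa lie mostly below the line (22, 46 and 36, against 4, 2 and 9 above it), and rings gather above it.

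Among Ppy-only cells, summed Chga was higher in those with less Ppy. No Chga cut was applied to these cells 1 by 1, so the sums do not show a separate group. Those with 5 to 20% Ppy and little Gcg or Sst (22, 47 and 45 cells) had 27118, 21850 and 22487 CPM of Chga, while those with at least 20% Ppy (108, 282 and 241 cells) had 3352, 2557 and 2814 CPM. At least 2 Cpb2 UMIs were found in 4 of 41 (9.76%), 21 of 112 (18.8%) and 13 of 74 (17.6%) dual cells, and in 3 of 22 (13.6%), 3 of 47 (6.38%) and 9 of 45 of the Ppy-only cells with 5 to 20% Ppy. As Cpb2 was picked for its level in shallow dual cells, these shares are a description. Insulin-only cells had at least 2 Cpb2 UMIs in 2.62%, 1.40% and 2.27% of cases. Of the cells with at least 20% Ppy, 0 of 108, 1 of 282 (0.355%) and 1 of 241 (0.415%) did. Without hormone and mitochondrial genes these cells held 6629, 4443 and 6239 UMIs on average, against 6287, 3777 and 7317 in those with 5 to 20%.

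Insulin-rich cells short of the Ppy threshold also differed in Cpb2, Mafa and Tspan8 by their Ppy share. In those under 0.5% Ppy (4369, 5641 and 5011 cells) Cpb2 stood at 12.6, 12.2 and 11.1 CPM, and in those with 2 to 5% Ppy (43, 104 and 66 cells) at 78.3, 107 and 82.2 CPM. Mafa had 733, 502 and 596 CPM under 0.5% Ppy and 267, 165 and 267 CPM at 2 to 5%. Tspan8 had 30.1, 59.1 and 30.9 CPM under 0.5% and 244, 352 and 199 CPM at 2 to 5%. Over this range Cpb2 and Tspan8 were thus higher, and Mafa lower, in each library in the cells that held more Ppy. Above the threshold this did not go on steadily for Cpb2 and Mafa. At 10 to 20% Ppy (20, 42 and 30 cells) Cpb2 had 32.2, 117 and 73.1 CPM and Mafa 424, 241 and 224 CPM. Tspan8 was higher still there, at 430, 712 and 340 CPM.

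A share of dual cells carried glucagon as well. At least 5% Gcg was found in 4 of 41 (9.76%), 20 of 112 (17.9%) and 5 of 74 (6.76%) dual cells, against 2.11%, 5.83% and 2.01% of insulin-only and 23.6%, 30.8% and 26.9% of Ppy-only cells. At least 5% Sst was found in 0 of 41 (3 cells would be 7.32%, and the exact upper bound is 8.60%), 2 of 112 and 0 of 74 (4.05% and 4.86%), although 40.2%, 38.5% and 25.04% of Ppy-only cells had it. Ttr, transthyretin, which alpha cells express strongly, was the 1 gene above both classes in deeper dual cells of each library, at 7290, 12471 and 6733 CPM against 4257, 5426 and 3140 CPM in insulin-only cells. Without the dual cells at 5% Gcg or more it was 3832, 7546 and 6533 CPM (18, 29 and 33 cells). This is 0.900, 1.39 and 2.08 times the level in all insulin-only cells, which include cells at 5% Gcg or more. Insulin-only cells under 5% Gcg had 3686, 3032 and 2478 CPM of Ttr. Against these it stayed past 1.5-fold with SC35-KO and in WT, and not with ASF-KO. Lars2, mitochondrial leucyl-tRNA synthetase, and AY036118 were below both classes in deeper dual cells of each library, with Lars2 at 945, 199.9 and 548 CPM against 1584, 502 and 1083 CPM in insulin-only cells.

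Endothelial, immune and pericyte markers were low in dual cells, ductal markers were higher than in insulin-only cells, and acinar markers summed higher than in insulin-only cells in WT alone. Endothelial markers summed to 27.3, 27.6 and 122 CPM in dual cells and 19330, 16441 and 14829 CPM in endothelial cells, immune markers to 19.9, 18.4 and 141 CPM, and pericyte and fibroblast markers to 14.9, 9.20 and 19.98 CPM. Ductal markers, which include the epithelial genes Epcam and Krt18, summed to 920, 808 and 899 CPM in dual, 718, 569 and 498 in insulin-only and 1366, 1538 and 1290 CPM in Ppy-only cells low in Gcg and Sst. Acinar markers, such as Prss2, a trypsinogen, and Ctrb1, a chymotrypsinogen, summed to 574, 72.3 and 2247 CPM in dual, 904, 204 and 1858 in insulin-only and 1665, 159 and 964 CPM in endothelial cells. In the libraries labelled KO 7 of 7 and 5 of 5 measured acinar markers lay below both insulin-only and Ppy-only cells. In WT it was 0 of 7. This was counted without a fold threshold, and the share of all genes below both by that rule is not given. These counts are therefore a description, and the part of free RNA in them was not tested. The acinar RNA in WT dual cells was spread over many cells, with Prss2 in 49 and Ctrb1 in 57 of 74. All 4 receptors of the neuropeptide Y family had 0 UMIs in dual cells of each library. Genes of the cell cycle summed to 57.2, 52.6 and 58.8 CPM in dual and 66.2, 95.3 and 68.8 CPM in insulin-only cells.

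Dual cells of the library labelled ASF-KO had higher levels of endoplasmic reticulum chaperones than those of WT. Of 4063 genes, 786 (19.3%) were at least 1.5 times higher and 358 (8.81%) at least 1.5 times lower, with a median log2 ratio of 0.16 over all genes. Scaling to all UMIs lowered every log2 ratio by 0.19 and gave 421 higher and 592 lower, and median-of-ratios factors lowered it by 0.16 and gave 453 and 575, so the excess of higher genes turned round. In insulin-only cells 270 of the 786 and 184 of the 358 passed the same ratio in the same direction. The share of all tested genes that passed it in insulin-only cells is not given, so these overlaps have no background. Unfolded protein response genes stood out in count, with 12 of 17 measured higher and 2 lower, and a median log2 ratio of 0.96; both other scalings gave 12 and 2 as well. Sdf2l1, an endoplasmic reticulum chaperone partner, had 358 CPM in the library labelled ASF-KO and 66.6 CPM in WT, 5.37 times higher (3.95 to 7.39) and 7.48 times in insulin-only cells. Hspa5, the chaperone BiP, had 2918 CPM with ASF-KO and 1136 CPM in WT (2.57 times, 2.36 to 2.80), and Hyou1, a further chaperone, 415 CPM with ASF-KO and 102 CPM in WT (4.06 times). Creld2 was 4.65 times, Pdia6 2.56 times, Manf 2.01 times and Dnajc3 2.15 times higher, while Ddit3, the stress factor CHOP, was at 0.491 and Asns, asparagine synthetase, at 0.582 of WT. The chaperones were thus higher while these 2 targets of the integrated stress response were lower. Of 11 beta markers 3 were higher (Mafa, Pdx1 and Ero1lb) and 2 lower (Slc2a2 and Trpm5), with a median log2 ratio of -0.35 against 0.16 over all genes, and both other scalings gave 0 higher and 3 lower. No gamma marker of 4 passed 1.5-fold, and 1 was lower under the other scalings.

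Granule genes were partly higher with ASF-KO, namely 5 of 14, or 3 higher and 1 lower under the other scalings. Chga had 21973 CPM with ASF-KO and 13307 CPM in WT (1.65 times), and Pcsk1 514 CPM with ASF-KO and 226 CPM in WT (2.27 times, 1.86 to 2.77). Chgb was 1.82 times, Scg2, secretogranin II, 1.79 times and Scg3 1.55 times higher. Both measured metallothioneins, which bind zinc and copper, were lower: Mt1 had 514 CPM with ASF-KO and 9621 CPM in WT (0.0535 times, 0.0464 to 0.0614), and Mt2 112 and 2009 CPM. Insulin-only cells showed the same for Mt1, at 0.0353 times WT. All 7 acinar markers were lower, with a median log2 ratio of -1.86, and Try4, a trypsinogen, was at 74.6 CPM with ASF-KO and 668 CPM in WT. As given above, acinar RNA also differed between the libraries in endothelial cells, though there it was higher with ASF-KO than in WT, and the part of free RNA in these ratios was not tested. Lyz2, lysozyme of macrophages, had 0 UMIs with ASF-KO and 52 UMIs in WT, which came from 3 of 74 cells.

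Fewer genes passed 1.5-fold against WT in dual cells of the library labelled SC35-KO than with ASF-KO. The 2 sums were unequal, and the counts were not matched for this. Without hormone and mitochondrial genes they held 760900 UMIs from 112 cells with SC35-KO and 402362 UMIs from 41 cells with ASF-KO. Of 3872 genes, 314 (8.11%) were at least 1.5 times higher and 221 (5.71%) at least 1.5 times lower, with a median log2 ratio of 0.07. In insulin-only cells 81 and 78 of these passed the same ratio, again without the share of all tested genes as a background. Scaling to all UMIs lowered every log2 ratio by 0.20 and gave 125 higher and 463 lower, and median-of-ratios factors gave 217 and 295. Slc24a5, a cation exchanger, had 69.7 CPM with SC35-KO and 7.77 CPM in WT (8.96 times, 4.06 to 23.4), and 4.57 times in insulin-only cells. Nupr1, a stress-induced nuclear protein, had 1011 CPM with SC35-KO and 515 CPM in WT (1.962 times), and Srsf9, a splicing factor of the same family as the targeted genes, was 2.31 times higher (1.70 to 3.17). Ttr had 9673 CPM with SC35-KO and 5593 CPM in WT (1.73 times), but 0.759 times WT once Scrublet-marked cells were removed. Among immediate early genes, which respond quickly to stimulation or dissociation, 7 of 9 were lower and 0 higher, with a median log2 ratio of -0.80; the other scalings gave 8 lower. Fos had 385 CPM with SC35-KO and 674 CPM in WT (0.571 times, 0.495 to 0.658), and Junb was at 0.409 and Atf3 at 0.103 of WT.

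Unfolded protein response genes moved little with SC35-KO, with 2 of 17 higher and 1 lower and a median log2 ratio of 0.07, or 0 higher and 3 lower with all UMIs; Hspa5 was at 0.758 of WT. Beta markers had 0 higher and 1 lower of 11, or 3 lower with all UMIs, with a median log2 ratio of -0.34, and no gamma marker of 4 passed 1.5-fold under any of the 3 scalings. Pcsk2, a prohormone convertase, was at 0.632 of WT and Pam, which amidates peptides, at 1.70. All 7 acinar markers were lower, with a median log2 ratio of -5.28: Prss2 had 6.57 CPM with SC35-KO and 468 CPM in WT (0.0140 times, 0.00453 to 0.0330), against 0.130 times in insulin-only cells. As given above, acinar RNA was also lower with SC35-KO than in WT in endothelial cells. The part of free RNA in these ratios was not tested. Both measured metallothioneins were lower here too, with Mt1 at 3868 CPM with SC35-KO and 9621 CPM in WT. Both KO comparisons use the same WT cells, so the calls that they have in common share that reference.

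**Figure D5:**
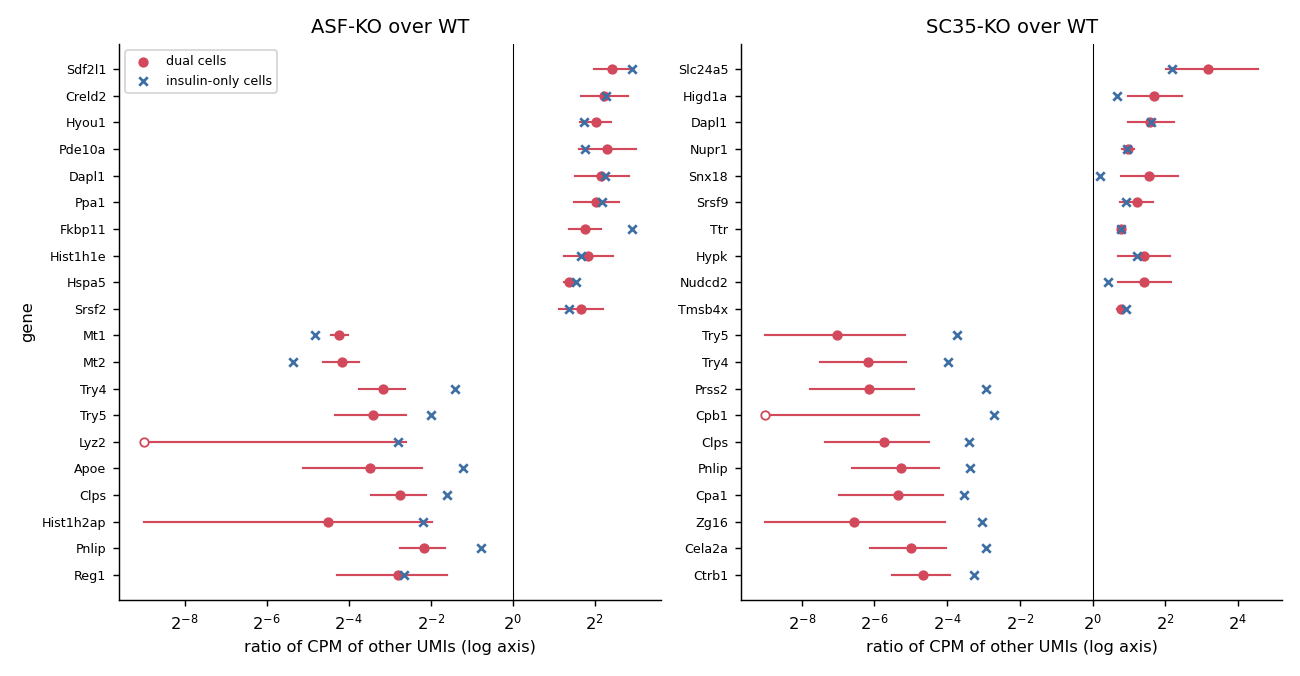
Ratio of CPM in dual cells (points with exact 95% counting intervals) and insulin-only cells (crosses) of the library labelled ASF-KO over WT (left) and SC35-KO over WT (right), on a log axis, for the 10 highest and 10 lowest genes by the interval bound nearest 1. Open points at the left edge have 0 UMIs with the KO label (Lyz2 with ASF-KO, Cpb1 with SC35-KO); chaperones such as Sdf2l1 lead the left panel and acinar genes close the right one.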

How the data were processed

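The authors deposited UMI counts per gene and barcode for 3 droplet libraries (3' chemistry, 32285 genes), 1 for each genotype. Seurat, STAR, Cell Ranger 5.0.0 and the build mm10 are listed in the submitters' processing notes, without their roles. The barcodes ranged down to 500 or 557 UMIs, so further filters were applied here as stated in the report. Doublets were scored with Scrublet (scanpy 1.11.5) and kept in the main values. Counts were summed over the cells of a class and library and scaled to UMIs other than 8 hormone genes and mitochondrially encoded genes. Genes needed 50 CPM in at least 1 class and 20 UMIs in at least 1 class, not always the same one, or 20 CPM for the members of gene lists. Shares have exact binomial, counts exact Poisson, ratios exact conditional and differences of shares Newcombe intervals. The members and lists were chosen with earlier results of these data known. Named genes are list members, the 12 genes each way that separate the single-hormone classes, up to 6 beyond both classes in all 3 libraries, and the 10 highest and lowest in each KO comparison by the interval bound nearest 1, without hormone, mitochondrially encoded, ribosomal, sex-linked and unnamed genes; any other gene named was chosen after its values were seen, and a few members are not reported here. Analyses used Python 3.11.15, numpy 2.4.6 and scipy 1.17.1, and were tested on simulated data.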

Additional observations from a re-analysis of the deposited data

Results flagged for a closer look

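Barcodes removed by the cell filter, which enter no comparison above, also held both hormones. In the library labelled SC35-KO 2.328% of the 2234 removed barcodes met the insulin and Ppy thresholds (52 barcodes, exact 95% interval 1.74 to 3.04), against 1.12% of 978 (11 barcodes, 0.563 to 2.003) in WT. With the ASF-KO label it was 0.707% of 5095 (36 barcodes, 0.495 to 0.977) against the same WT value. Their source was not tested.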

How the results depend on the processing

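No paired analysis was possible because each group has 1 library, and no replicate could be left out for the same reason. Depth and cell number limit the values: the sums for dual cells rest on 41, 112 and 74 cells. The cause of the changes below was not tested; values are in the order ASF-KO, SC35-KO, WT where 3 are given.

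The difference in the share of dual cells was 0.649 points for SC35-KO against WT with a threshold of 5% insulin. The depth ratio of dual to insulin-only cells was 1.33 with ASF-KO and turned round to 1.15 with SC35-KO over UMIs other than hormone and mitochondrial genes. The weight of the insulin-only profile was 70.8%, 63.2% and 64.1% with scaling to all UMIs. It was 58.8% (ASF-KO) and 53.0% (WT) over genes separated 4-fold, 62.3% without Scrublet-marked cells (SC35-KO), 59.9% (SC35-KO) and 63.7% (WT) with Ppy-only cells low in Gcg and Sst, and 56.5% in shallow and 48.3% in deeper cells (SC35-KO).

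Genes above both classes numbered 2 (ASF-KO) and 2 (SC35-KO) with scaling to all UMIs, 5 (SC35-KO) with median-of-ratios factors, 2, 1 and 2 at 2-fold, 235, 65 and 40 from 20 CPM, 3, 2 and 1 from 100 CPM, 97, 60 and 8 without Scrublet-marked cells, 9 (WT) with Ppy-only cells low in Gcg and Sst, 425, 113 and 196 in shallow and 95, 33 and 12 in deeper cells. Genes below both numbered 0, 0 and 1 with scaling to all UMIs, 55 (ASF-KO) and 13 (WT) with median-of-ratios, 3, 0 and 0 at 2-fold, 280, 95 and 53 from 20 CPM, 6, 3 and 1 from 100 CPM, 90, 28 and 14 without Scrublet-marked cells, 19 (SC35-KO) with Ppy-only cells low in Gcg and Sst, 275, 52 and 62 in shallow and 80, 47 and 17 in deeper cells. These last 2 keep all Ppy-only cells as reference, unlike the report.

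Here the CPM minimum was applied after scaling, so the counts differ from those in the report. Genes higher with ASF-KO than in WT numbered 139 with scaling to all UMIs, 461 with median-of-ratios, 199 at 2-fold, 373 from 100 CPM and 324 in shallow cells. Genes lower numbered 644 with median-of-ratios, 124 at 2-fold, 850 from 20 CPM, 168 from 100 CPM and 604 at 20% insulin and 10% Ppy. Genes higher with SC35-KO numbered 13 with scaling to all UMIs, 48 at 2-fold, 684 from 20 CPM, 108 from 100 CPM, 487 without Scrublet-marked cells, 505 at 20% insulin and 10% Ppy and 520 in shallow cells. Genes lower numbered 58 at 2-fold, 563 from 20 CPM, 98 from 100 CPM, 366 at 20% insulin and 10% Ppy and 347 in deeper cells. The share of dual cells with a Mafa UMI was 63.4%, 42.9% and 60.8% unthinned and 8.11% (WT) at 500 UMIs, and with an Etv1 UMI 75.6%, 80.4% and 74.3% unthinned and 12.2% (ASF-KO) and 13.5% (WT) at 500 UMIs. Of 278 alternative values of 40 named genes, 276 kept their direction and stayed past 1.5-fold, 1 fell short of it, and Ttr turned to 0.759 with SC35-KO.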
